A study of Homo sapiens with 6 samples.

Results

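The DEAD and DEAH box genes are those whose platform annotation symbol is DDX or DHX followed by digits, with or without a letter behind them. Of 9586 genes that a probeset of the array names alone, 41 met this rule, 26 DDX genes and 15 DHX genes, with 74 of the 16569 deposited probesets, and each gene was represented by its probeset with the highest mean over the 6 arrays. The cells were HEK293T, derived from human embryonic kidney and expressing large T antigen. They were transiently transfected with pcDNA4/HisMax carrying the coding region of *USF1*, a basic helix-loop-helix transcription factor (USF1, 3 arrays), or with the vector lacking this insert (Empty vector, 3 arrays), and RNA was taken from all cultures at 48 hours. Both groups keep the *USF1* gene of the cells, and the added copy was driven by the plasmid and not from its own locus. RNA came from whole cultures, so fewer cells that hold a transcript and less of it per cell cannot be told apart. Neither the labels nor the methods say that the 3 arrays of a group were separate transfections, so the p-values cover the spread between arrays, which may be technical.

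DEAD and DEAH box proteins use ATP to bind, unwind or strip proteins from RNA. They are named after the amino acids of a conserved motif that takes part in ATP hydrolysis, and most steps in the life of an RNA have helicases of their own, among them splicing, export, ribosome assembly, translation and decay. DEAD box proteins open short helices where they bind, while DEAH box proteins move along a strand from its end. Many DEAH box proteins are switched on by partners that carry a G-patch, and several DEAD box proteins by partners that clamp their helicase core.

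Expression values were log2 RMA values, and USF1 minus Empty vector was estimated with limma over all probesets, with Benjamini-Hochberg adjustment over all of them. A gene counts as called where its adjusted p-value is under 0.05. Of the HEK293T markers, 5 of 9 had a probeset (*VIM*, *CDH2*, *NEFL*, *NEFM* and *LIN28B*) and none of them was called. None of the 5 blood, 4 fat, 3 endothelial and 3 liver markers is among the deposited probesets named alone. The probeset of *USF1* itself had 4.76, 4.94 and 4.68 in USF1 arrays, against 4.37, 5.08 and 5.14 in Empty vector arrays (difference -0.071, SE 0.19, adjusted p-value = 0.836 from limma). The groups overlapped, and as no source used here places its probes in the transcript, this probeset does not check the transfection. The paper reports the over-expression at the protein level, from a western blot with antibodies against the tag and against USF1. Empty vector replicate 1 stood apart. The SD of its differences over the probesets was 0.336 to either remaining array of its group, beside 0.182 between those arrays.

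Over-expression of *USF1* was followed by few changes in DEAD and DEAH box genes. Of 41 members, 2 were called, both lower in USF1 cells (4.88%), and the background over all 9586 genes was 14.1% called, 8.89% lower and 5.18% higher. At an unadjusted p-value under 0.05, 9 of the 41 members were lower and 0 higher, where 34.5% of all genes passed in either direction. The 3 USF1 arrays lay below all Empty vector arrays in 11 members (26.8%) and above them in 1 (2.44%). Over all genes these shares were 27.5% and 12.6%. No difference between the family and other genes was tested, and these shares are a description. The differences of the members ran between -0.45 and 0.42 with a median of -0.059, beside a median of -0.079 over all genes. In the deposited values 28 of 41 members (68.3%) and 63.4% of all genes had a negative difference. Centring each array on its median moves all genes alike, to a median of -0.010 over all genes and 0.0093 over the members, and 19 members then had a negative difference. The 95% interval of the difference lay within a change of 1.5-fold in 35 of 41 members (85.4%), and in 77.5% of all genes.

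**Figure D1:**
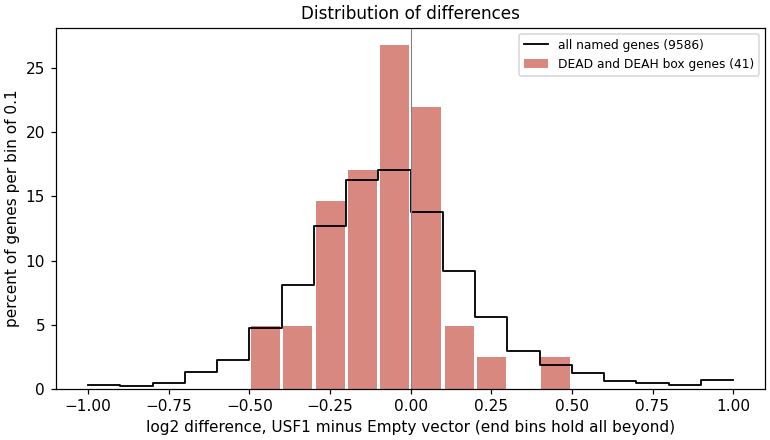
Percent of genes (vertical axis) in bins of 0.1 of USF1 minus Empty vector on the log2 scale (horizontal axis) for the 41 DEAD and DEAH box genes (red bars) and all 9586 named genes (black line), with the end bins holding all values beyond them. The members lie between -0.45 and 0.42, while the line runs on to both sides. The line holds many more genes, so the ranges do not compare the spread. The member at 0.42 is *DHX36*, which had -0.21 without Empty vector replicate 1.

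The splicing helicases held both calls, which is 2 of 11 (18.2%), beside 14.1% called over all genes, 8.89% lower and 5.18% higher. At an unadjusted p-value under 0.05, 4 of the 11 passed (36.4%), beside 34.5% of all genes. *DDX46* is the human relative of yeast Prp5, which helps to recognize the branch point of an intron. Its value was 7.59, 7.75 and 7.57 in USF1 arrays, against 8.09, 8.16 and 8.02 in Empty vector arrays. The highest USF1 array stayed below the lowest Empty vector array, and the means were 7.64 ± 0.10 in USF1 cells and 8.09 ± 0.07 in Empty vector cells (SD, n = 3 arrays each). *DDX46* thus fell by 0.45 on the log2 scale (SE 0.09, adjusted p-value = 0.0197 from limma), with a 1.37-fold lower value in USF1 cells. The other probeset of *DDX46* had 3.51, 4.19 and 3.37 in USF1 arrays, against 3.86, 4.24 and 4.09 in Empty vector arrays. There the groups overlapped and the difference of -0.37 (SE 0.20) did not pass (adjusted p-value = 0.254 from limma).

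*DHX35* encodes a DEAH box protein found in the spliceosome. Its value was 3.99, 4.17 and 3.83 in USF1 arrays, against 4.32, 4.58 and 4.43 in Empty vector arrays, without overlap. It fell by 0.44 (SE 0.11), which is 1.36-fold lower in USF1 cells, and limma gave an adjusted p-value of 0.041. At its other probeset the USF1 arrays had 3.94, 3.81 and 3.59 and the Empty vector arrays 4.35, 4.03 and 4.27, again without overlap. The difference there was of the same size, -0.43 (SE 0.12), on the other side of the threshold (adjusted p-value = 0.0557 from limma). Both calls turn on single arrays. *DDX46* was called in 3 of 6 fits that each left out 1 array, with no call without USF1 replicate 1 (-0.43), USF1 replicate 3 (-0.42) or Empty vector replicate 2 (-0.42). *DHX35* was called in 2 of the 6, with no call without the same arrays (-0.44, -0.36 and -0.38) or without Empty vector replicate 3 (-0.45). Without those 3 arrays, single fits called 3.36%, 2.67% and 4.03% of all genes. With arrays centred on their medians, *DDX46* kept its call (-0.38, adjusted p-value = 0.0287 from limma) and *DHX35* did not pass (-0.38, adjusted p-value = 0.063 from limma). With an intensity trend in the prior *DHX35* did not pass either (adjusted p-value = 0.0538 from limma), and its probesets are among the dimmest 25% that an alternative left out.

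USF1 binds the E-box, most strongly in the form CACGTG, which reads the same on both strands. The windows from 250 bases before to 50 bases after the annotated start sites (RefSeq, GRCh38.p14) were searched for these 6 letters. The table held windows for 38 of 41 members, matched by symbol. The letters occurred in 9 of 38 members (23.7%), in 13.4% of the genes measured here and in 8.77% of all genes with a window. Counted as windows of equal length, they occurred in 9 of 49 windows of members (18.4%), in 9.67% of the windows of genes measured here and in 7.26% of all windows. *DHX35* was the member with a pair of matches, beginning 184 and 132 bases before its start site. The stretch that holds both is shown because *DHX35* is the called member with a match, at chr20:38962148-38962229 on the plus strand of GRCh38.p14, with the matched letters in capitals.
DHX35: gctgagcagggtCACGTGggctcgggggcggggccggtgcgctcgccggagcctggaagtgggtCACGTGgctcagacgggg

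For comparison, 3 further members are shown with the letters around their match, the same letters in capitals. They are *DDX31*, at chr9:132669988-132670017 on the minus strand, *DDX5*, at chr17:64506651-64506680 on the minus strand, and *DHX40*, at chr17:59565448-59565477 on the plus strand, all in GRCh38.p14. The matches begin 22, 30 and 150 bases before the annotated start sites.
DDX31: cctcgcgcgtccCACGTGgggtcccgggcc
DDX5: gggtggtacagcCACGTGacaacgccaggc
DHX40: caaggcgaagcgCACGTGgcagttggcggg

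These members did not share a direction. *DDX31* had a difference of -0.26 (SE 0.10), *DHX40* of -0.16 (SE 0.08) and *DDX5* of 0.17 (SE 0.09), and none of them passed. The other members with a match were *DHX34*, *DHX32*, *DDX21*, *DDX54* and *DHX37*, where the match lies after the start site. Of the 9 members with a match 6 were lower in USF1 cells (median -0.085, 1 call, *DHX35*), and of the 29 members without one 20 were lower (median -0.032, 1 call, *DDX46*). A match describes these letters only. Binding of USF1 was not measured in these samples.

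The other 9 splicing helicases were not called. *DHX16*, the relative of yeast Prp2, which readies the spliceosome for its first chemical step, had 6.45, 6.44 and 6.47 in USF1 arrays, against 6.78, 6.63 and 6.67 in Empty vector arrays. These did not overlap, and the difference was -0.24 (SE 0.08, adjusted p-value = 0.0917 from limma). The sister proteins *DDX17* and *DDX5* act in splicing, in transcription and in the processing of microRNA precursors. At the probesets that represent them they differed in sign, and neither was called. Over all 5 probesets of *DDX17* the differences ran between -0.24 and 0.091, and 3 of them were negative. *DDX17* had 10.58, 10.72 and 10.57 in USF1 arrays, against 10.78, 10.91 and 10.87 in Empty vector arrays (-0.23, SE 0.09, adjusted p-value = 0.118 from limma). *DDX5* had 6.77, 6.91 and 6.80 in USF1 arrays, against 6.61, 6.73 and 6.62 in Empty vector arrays, and was the only member with all USF1 arrays above all Empty vector arrays (0.17, SE 0.09, adjusted p-value = 0.212 from limma). A further probeset that the annotation gives to *DDX5* and to a pair of microRNA genes is not counted as a member. It was brighter, with means of 10.28 in USF1 arrays and 10.22 in Empty vector arrays. Its groups overlapped (0.055, SE 0.09). The helicases of the later steps lay near 0, with 0.0047 (SE 0.12) for *DHX38*, the relative of Prp16, and -0.11 (SE 0.08) for *DHX8*, the relative of Prp22, which releases the finished message. *DHX15*, the relative of Prp43, which takes the spliceosome apart, had -0.023 (SE 0.09). *DDX23*, which acts when the splice site at the head of the intron is handed over, had 0.012 (SE 0.10), *DDX41* 0.017 (SE 0.11) and *DDX42* -0.16 (SE 0.09).

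**Figure D2:**
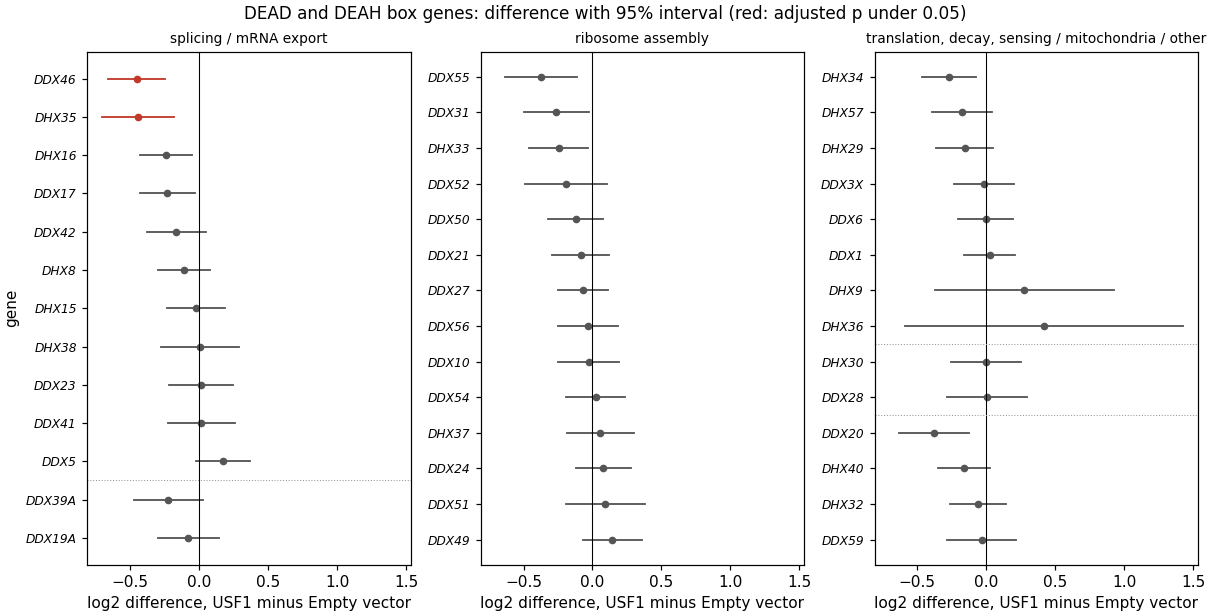
USF1 minus Empty vector on the log2 scale (horizontal axis), with the 95% interval as a bar, for the 41 DEAD and DEAH box genes (vertical axis), in panels by role and divided by dotted lines within a panel, with called genes in red. *DDX46* and *DHX35* are the red points, both left of 0, and *DHX36* and *DHX9* have the widest intervals.

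*DDX20*, also called Gemin3, is a subunit of the SMN complex, which loads the rings of Sm proteins onto spliceosomal RNAs. It had 8.004, 8.339 and 8.052 in USF1 arrays, against 8.462, 8.609 and 8.457 in Empty vector arrays. No USF1 array reached an Empty vector array, and the difference of -0.38 (SE 0.11) just missed the threshold (adjusted p-value = 0.0594 from limma). *DDX20* was called in 1 of the 6 fits without 1 array, that without USF1 replicate 2 (-0.48), which had the highest *DDX20* value of its group. It also passed with an intensity trend in the prior (adjusted p-value = 0.0334 from limma), with array weights (0.0128) and without the dimmest 25% of probesets (0.0493). It did not pass after centring (adjusted p-value = 0.106 from limma) or quantile normalization (0.0899). Nor did it pass on the linear scale, with probeset means or with either of the methods' t-tests. Its other probeset had -0.22 (SE 0.14). In the deposited values all 7 other measured genes of this complex had a negative difference too, where 63.4% of all genes did. Their median was -0.19 beside -0.079 over all genes, and 2 of the 7 were called lower, beside 8.89% over all genes. This list was chosen with earlier results of these data known, so the shares are a description and no set was tested. Centring moves all genes upward alike, from a median of -0.079 to -0.010, and *GEMIN5* had only -0.030 (SE 0.09) before it. The common sign is therefore given for the deposited values. *GEMIN2*, the subunit that holds the Sm proteins, had 6.97, 6.96 and 6.83 in USF1 arrays, against 7.40, 7.47 and 7.37 in Empty vector arrays (-0.49, SE 0.09, adjusted p-value = 0.0124 from limma). It was called in 4 of the 6 fits without 1 array, and not without USF1 replicate 3 or Empty vector replicate 2. *GEMIN6* fell by 0.37 (SE 0.10, adjusted p-value = 0.0486 from limma), with a call in 1 of these fits and none after centring (adjusted p-value = 0.0749). *GEMIN8* had the largest difference of the complex, -0.54 (SE 0.16), and did not pass (adjusted p-value = 0.0595 from limma).

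G-patch proteins are the kind of partner that activates DEAH box helicases. Of their 20 measured genes, 4 were called lower and 0 called higher, beside 8.89% and 5.18% over all genes. The G-patch list too was chosen with earlier results of these data known, so its shares are a description. At an unadjusted p-value under 0.05, 7 of the 20 passed, all with a negative difference, which is 35% beside 34.5% of all genes, and 14 of the 20 had a negative difference at any p-value. *GPATCH2* had 5.13, 5.02 and 5.06 in USF1 arrays, against 5.82, 5.71 and 5.76 in Empty vector arrays. It fell by 0.69 (SE 0.08, adjusted p-value = 0.0039 from limma) and was called without each array in turn. *GPATCH8* (-0.47, SE 0.11) and *GPATCH4* (-0.46, SE 0.10) fell as well, each called in 3 of the 6 fits, and so did *GPATCH1* (-0.41, SE 0.11), called in 2 of them and not after centring (adjusted p-value = 0.0729 from limma) or quantile normalization (0.0685). *GPATCH1* is named to complete the count, after its value was seen. It had 5.57, 5.85 and 5.50 in USF1 arrays, against 6.04, 6.04 and 6.07 in Empty vector arrays, and it lost its call without the same 4 arrays as *DHX35*. Further G-patch genes had -0.17 (SE 0.08) for *NKRF*, -0.35 (SE 0.12) for *PINX1*, 0.088 (SE 0.12) for *SUGP1* and -0.039 (SE 0.10) for *CMTR1*, none of them called.

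**Figure D3:**
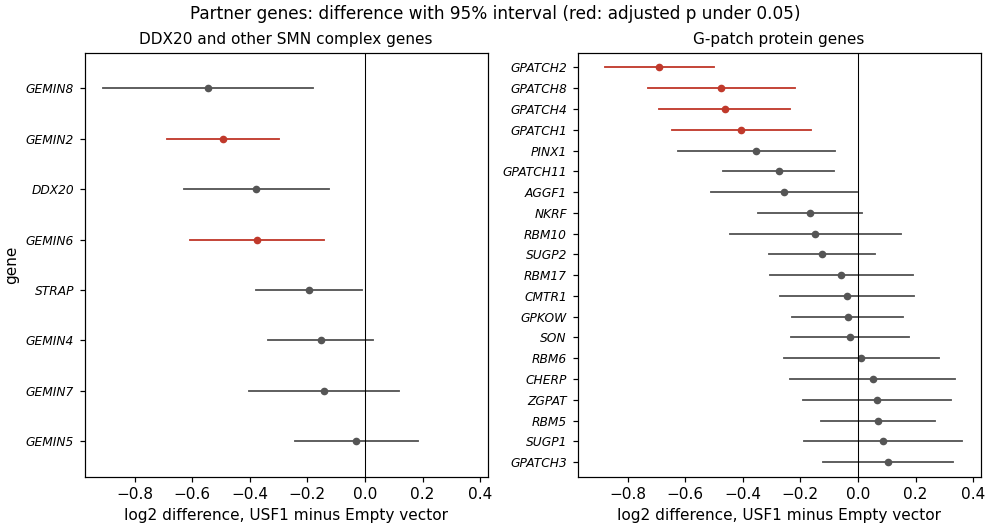
USF1 minus Empty vector on the log2 scale (horizontal axis), with the 95% interval as a bar, for *DDX20* and 7 other SMN complex genes (left) and 20 genes of G-patch proteins (right), with called genes in red. In these values, which were not centred, all points of the SMN panel lie left of 0, with *GEMIN2* and *GEMIN6* in red. In the other panel 4 G-patch genes are red.

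The helicases of ribosome assembly form the largest group, with 14 members. None was called, and 3 were lower at an unadjusted p-value under 0.05 (21.4%), as were 2289 of all 9586 genes. *DDX55*, which acts on the large subunit, had 5.93, 6.09 and 5.93 in USF1 arrays, against 6.58, 6.24 and 6.25 in Empty vector arrays. The groups lay apart, with Empty vector replicate 1 the highest of all (-0.37, SE 0.11, adjusted p-value = 0.0654 from limma). Without that array the difference was -0.26. *DDX31*, a nucleolar helicase, had 6.01, 6.28 and 6.01 in USF1 arrays, against 6.37, 6.27 and 6.44 in Empty vector arrays, with USF1 replicate 2 inside the range of the controls (-0.26, SE 0.10, adjusted p-value = 0.131 from limma). *DHX33*, a nucleolar helicase of ribosomal RNA synthesis, had -0.24 (SE 0.09) and -0.31 (SE 0.11) at its probesets. *DDX49*, of the small subunit, was the highest of the group at 0.15 (SE 0.10), with 0.24 (SE 0.10) and 0.31 (SE 0.10) at its other probesets, and none of these passed. Without Empty vector replicate 1 the last of these probesets was called higher (0.38, SE 0.10, adjusted p-value = 0.0354 from limma), while the representing probeset was not (0.21, SE 0.10). *DDX24*, of the large subunit, had 0.078 (SE 0.09), and *DDX51*, a further large subunit helicase, 0.092 (SE 0.13). *DDX52* had -0.19 (SE 0.13) and *DDX50* -0.12 (SE 0.09). The remaining members, *DDX10*, *DDX21*, *DDX27*, *DDX54*, *DDX56* and *DHX37*, had differences between -0.085 and 0.056.

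**Figure D4:**
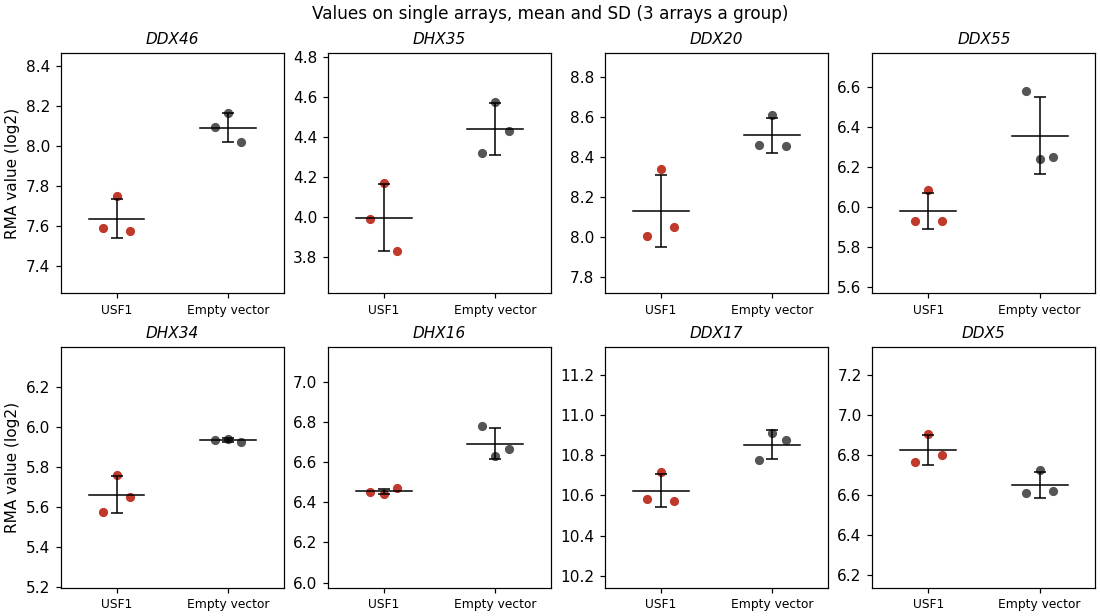
RMA expression values (log2, vertical axis, panels of equal height in log2 units) of 8 DEAD and DEAH box genes on single arrays, red for USF1 and grey for Empty vector, where the long bar marks the mean of 3 arrays and the error bar their SD. The 8 genes are taken from the members whose groups do not overlap (11 of 41 with USF1 below, 1 above), so the groups lie apart in all panels. USF1 is lower in each but *DDX5*, and *DDX46* and *DHX35* are the called genes.

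Among the helicases of translation, decay and RNA sensing, none of 8 was called. *DHX34*, a factor of nonsense-mediated decay, had 5.57, 5.76 and 5.65 in USF1 arrays, against 5.93, 5.94 and 5.92 in Empty vector arrays (-0.27, SE 0.09, adjusted p-value = 0.0698 from limma). Its groups did not overlap. *DHX29*, which helps ribosomes scan structured leaders, had -0.16 (SE 0.09) and *DHX57* -0.18 (SE 0.09). The abundant cytoplasmic helicases were close to level, with -0.018 (SE 0.09, 95% interval -0.23 to 0.20) for *DDX3X*, a helicase of translation initiation, -0.0050 (SE 0.09, 95% interval -0.21 to 0.20) for *DDX6*, a helicase of decapping and P-bodies, and 0.024 (SE 0.08, 95% interval -0.16 to 0.21) for *DDX1*, part of the tRNA ligase complex. Of 5 measured genes for the partners of *DDX1* in that complex, *FAM98A* fell by 0.37 (SE 0.09, adjusted p-value = 0.0353 from limma). *FAM98A* was called in 1 of the 6 fits without 1 array. It passed after quantile normalization (adjusted p-value = 0.0429 from limma) and not after centring (0.0502).

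*DHX36*, which unfolds G-quadruplexes, and *DHX9*, which unwinds long double strands, had the largest positive differences of the family, and these rested on Empty vector replicate 1. The representing probeset of *DHX36* had 8.18, 8.10 and 8.02 in USF1 arrays, against 6.42, 8.37 and 8.26 in Empty vector arrays (0.42, SE 0.44, adjusted p-value = 0.551 from limma). Without Empty vector replicate 1 the difference turned to -0.21 (SE 0.10). A further probeset showed the same low array, with 6.87, 6.69 and 6.68 in USF1 arrays, against 5.52, 6.94 and 7.05 in Empty vector arrays. The last one did not, with 7.25, 7.08 and 7.04 in USF1 arrays, against 7.36, 7.33 and 7.27 in Empty vector arrays (-0.20, SE 0.09, adjusted p-value = 0.176 from limma). So the probesets of a single gene disagreed on that array and gave -0.25, -0.21 and -0.18 without it.

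*DHX9* followed the same course. Its representing probeset had 7.12, 6.85 and 7.17 in USF1 arrays, against 6.02, 6.98 and 7.32 in Empty vector arrays (0.28, SE 0.28), and another had 4.58 in Empty vector replicate 1, against 5.50 and 6.20 in the other Empty vector arrays. Its last probeset had 6.77, 6.61 and 6.69 in Empty vector arrays and a difference of -0.035 (SE 0.09). Without Empty vector replicate 1 the 3 probesets gave -0.11, -0.10 and 0.0051. In *DDX24* 1 of 2 probesets was low on that array, with 6.26, 6.29 and 6.22 in USF1 arrays, against 5.03, 6.02 and 6.34 in Empty vector arrays. Its difference of 0.46 (SE 0.28) became 0.080 without the array. In *DDX17* 3 of 5 probesets were low and in *DHX34* 1 of 2.

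Over the family, 9 of 74 probesets (12.2%) from 5 genes lay more than 0.5 below the mean of the other Empty vector arrays on Empty vector replicate 1, and 0 lay as far above it. Over all probesets 5.2% lay as far below. All 5 genes had at least 1 other probeset that did not. The 5′ minus 3′ value of the actin control probesets was -0.53, -0.68 and -0.49 in USF1 arrays, against -1.34, -1.04 and -0.52 in Empty vector arrays, and that of *GAPDH* was -0.35, -0.32 and -0.33 in USF1 arrays, against -0.58, -0.32 and -0.26 in Empty vector arrays. Both were lowest on Empty vector replicate 1. The sources used here do not say where the probes lie in the transcripts. Their part in the probeset values was not tested. Without this array *DDX46* (-0.45) and *DHX35* (-0.50) were both called and no other member was, beside 13.7% of all genes called in that fit. There 26 of 41 members (63.4%) were lower in USF1 cells, and 58.6% of all genes.

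**Figure D5:**
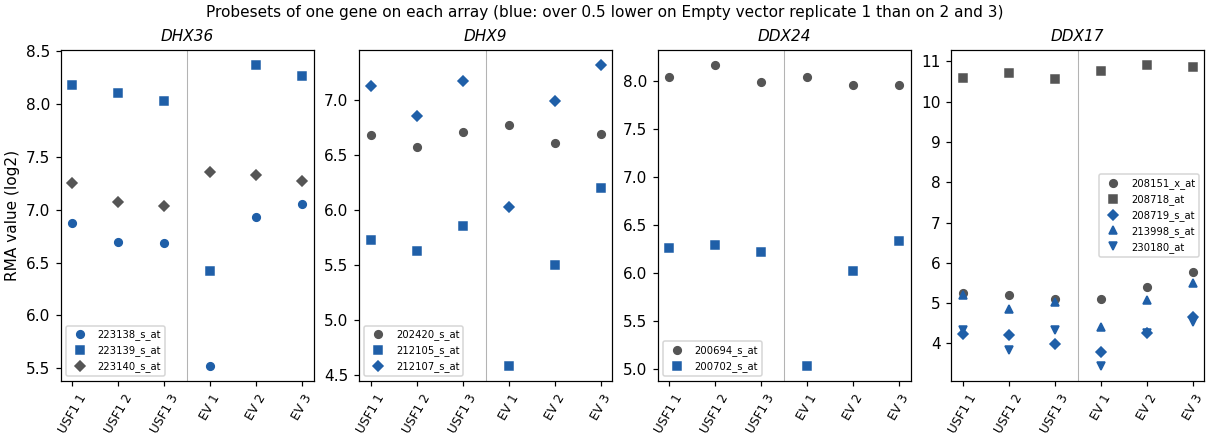
RMA expression values (log2, vertical axis) of each probeset of *DHX36*, *DHX9*, *DDX24* and *DDX17* on the 3 USF1 arrays and the 3 Empty vector arrays (EV, horizontal axis), in blue for probesets more than 0.5 lower on Empty vector replicate 1 than the mean of replicates 2 and 3. Grey probesets of the same genes do not drop there, as the value of 7.36 for *DHX36* shows.

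The remaining members were not called. Of the export helicases, *DDX39A*, the close relative of the export factor UAP56, had 8.59, 8.40 and 8.47 in USF1 arrays, against 8.78, 8.52 and 8.84 in Empty vector arrays (-0.22, SE 0.11, adjusted p-value = 0.2 from limma), with overlap. *DDX19A*, which strips proteins from messages at the nuclear pore, had -0.077 (SE 0.10). None of 8 measured export partners was called, the nearest being *ALYREF*, which joins messages to the export receptor, at 0.41 (SE 0.11, adjusted p-value = 0.0526 from limma). The mitochondrial helicases *DHX30* and *DDX28* had -0.0016 (SE 0.11) and 0.0059 (SE 0.13). *DHX40*, *DHX32* and *DDX59* had -0.16 (SE 0.08), -0.059 (SE 0.09) and -0.034 (SE 0.11), and in *DHX40* the USF1 arrays, at 8.12, 8.21 and 8.18, lay below the Empty vector arrays, at 8.26, 8.40 and 8.34. Probesets that the annotation shares between *DDX47* and *APOLD1* and between *DDX39B* and neighbouring genes had differences of -0.012 (SE 0.09) and 0.11 (SE 0.09) and are not counted as members. Of 10 measured helicases of related families with other names, *ASCC3*, which takes apart collided ribosomes, was called lower (-0.41, SE 0.11, adjusted p-value = 0.0434 from limma), in 1 of the 6 fits without 1 array and not after centring (adjusted p-value = 0.0756). The clamping partners of DEAD box proteins (13 measured) and the genes of RIG-I signalling (7 measured) held no call. At an unadjusted p-value under 0.05, 3 and 1 of them passed (23.1% and 14.3%), beside 34.5% of all genes.

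In the deposited values, members with several probesets mostly gave a common direction. Of 23 such members, all probesets had the same sign in 16, and in the pair of called members 1 of 2 probesets was called. Besides that pair, *DDX19A*, *DDX20*, *DDX21*, *DDX27*, *DDX31*, *DDX3X*, *DDX59*, *DHX15*, *DHX30*, *DHX33* and *DHX40* were lower at each of their probesets. *DDX24*, *DDX49* and *DHX37* were higher at each, and no probeset of these genes, lower or higher, was called. In these values 63.4% of all genes had a negative difference, and centring moves all differences upward. The sign of a small difference therefore depends on the scaling. The share of all genes whose probesets had a common sign was not computed.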

How the data were processed

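The deposited log2 values are RMA values that the authors made with justRMA in R 2.8.0 from arrays of HEK293T cells, using a masked probe definition, leaving out probesets with few probes or mostly absent calls, and correcting for batch with ComBat. No source used here names these batches, so the fit has no batch term. The file holds 16569 probesets, of which 33 are controls, 15099 are annotated to 1 symbol, 570 to several and 900 to none. Array medians lay between 5.88 and 6.00.

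Here, limma 3.58.1 in R 4.3.3 (lmFit and eBayes, no covariates) was run over all probesets, with Benjamini-Hochberg adjustment, a threshold of 0.05 and a prior of 4.53 degrees of freedom. Arrays were grouped by their titles. The number of arrays limits the precision. The script was tested on simulated data. The named genes are the called members, the 6 highest and 6 lowest differences, the highest and lowest means, members with part of their probesets called, and up to 3 called genes per partner list. Others are named to complete a group. Members and lists were chosen with earlier results of these data known. Alternatives were other priors, t-tests, array weights, scalings, filters, probeset choices, the replicate number as a block, and fits without each array in turn.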

Additional observations from a re-analysis of the deposited data

How the results depend on the processing

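With 41 members and 2 calls, the count depended on the setting. It was 0 with t-tests of equal or unequal variances and Benjamini-Hochberg adjustment (9 lower and 1 higher, or 6 lower and 1 higher, unadjusted). The paper names a Student's t-test, lists fractional degrees of freedom, which the unequal form gives, and lists no adjusted p-values. The count was 0 with the probeset of the largest SD, and 1 after centring on array medians or on the linear scale. It was 6 with array weights (*DDX17*, *DDX20*, *DDX46*, *DDX55*, *DHX34* and *DHX35*). It was 3 with an intensity trend, but without *DHX35* (adjusted p-value = 0.0538 from limma) and with *DDX17* and *DDX20* besides *DDX46*, and 2 without the dimmest 25% of probesets, where *DDX20* was called and *DHX35* was left out as dim. Leaving out single arrays gave 0 to 3. No setting called a member higher at the probeset that represents it. Members with some and not all probesets called numbered 2, and 1 with a robust prior or without the dimmest 25% of probesets, 0 with either t-test, 5 with array weights, and 0 to 3 without single arrays. Of 70 partner genes 8 were called lower and 0 higher. Lower calls numbered 1 and 0 with the t-tests, 4 after centring, 5 after quantile normalization, with probeset means or with the largest SD, and 1 to 7 without single arrays. Higher calls numbered 1 with an intensity trend, a robust prior, quantile normalization, no dim probesets or the replicate block, 2 after centring, 3 with array weights or probeset means, and 0 to 1 without single arrays. Over all probesets, calls split into 715 higher and 1259 lower, and 1041 and 815 after centring or 976 and 959 after quantile normalization.

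The sign of a difference that was not called turned for *DHX15* (0.045 after centring, 0.00049 after quantile normalization), and with the probeset of the largest SD for *DHX34* (0.0037), *DDX54* (-0.037) and *DDX17* (0.091). Without single arrays, *USF1* ran between -0.32 and 0.070, *DHX36* between -0.21 and 0.76, *DHX9* between -0.10 and 0.55, *DHX15* between -0.079 and 0.048, *DDX51* between -0.013 and 0.18 and *DDX54* between -0.027 and 0.079. The cause was not tested. Deviations from the group means correlated at 0.096, 0.25 and 0.13 between arrays with the same replicate number, the highest value of each array. Between different numbers the correlations ran between -0.17 and 0.025. Whether the numbers mark a pairing was not tested, and the main fit has no term for them. With the replicate block 3 members were called, *DDX20*, *DDX46* and *DHX35*, with 4 having some and not all probesets called.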
